A study of Mus musculus with 3 samples.

Results

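The genes described are 9 interferon-inducible GTPase genes of the mouse, counted in T-helper 1 (Th1) cells. They were taken by symbol from 50600 genes in the count tables: 4 immunity-related GTPase (IRG) genes, Igtp, Irgm1, Irgm2 and Iigp1, and 5 guanylate-binding protein (GBP) genes, Gbp2, Gbp3, Gbp5, Gbp7 and Gbp9. All 9 were found in the tables. The cells were primary Th1 cells from mice of strain C57BL/6NJ, with sex not collected and age unknown, in 3 RNA-seq libraries of 1 group. The labels number these libraries as biological replicates 1, 2 and 3 under 1 donor entry and name no genotype or treatment beyond the differentiation protocol. They do not say whether the cultures were separate, so the spread between libraries may be technical. The file headers carry 24 hr and do not say from which event it is counted. The samples are labelled as total RNA, while the library protocol named is one for polyadenylated RNA. Counts were made on 1 strand, and no source used here says whether that strand is the one of the mRNA in these libraries, so each level given is that of the strand counted and may not be that of the mRNA.

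IRG and GBP proteins are GTPases that interferon gamma, the cytokine of Th1 cells, induces strongly in many mouse cell types. Induction is known to run through promoter elements called GAS and through interferon-stimulated response elements (ISRE), which IRF factors bind. The GTPases act on the membranes of vacuoles that hold pathogens such as Toxoplasma gondii. Among the IRG proteins, the Irgm group sits on the cell's own membranes and keeps effector IRG proteins such as Iigp1 inactive there. The conjugation machinery for ATG8 proteins, known from autophagy, guides effector IRG and GBP proteins to the vacuole. In mouse CD4 T cells, loss of Irgm1 is known to cause cell death after exposure to interferon gamma.

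The promoters are shown because they carry the response elements through which the family is known to be induced. RefSeq promoter windows, from 250 bases before the annotated first base to 50 bases after it, were matched for 7 of the 9 genes on build GRCm38.p6. Iigp1 and Gbp9 had no entry. Both strands were searched for the ISRE core (GAAA, any 2 bases, GAAA) and the GAS element (TTCNNNGAA). The last 170 bases before the first base follow, read 5′ to 3′ on the strand of the gene, with every base of a match to either motif in capitals.
Igtp, chr11:58199386-58199555, + strand: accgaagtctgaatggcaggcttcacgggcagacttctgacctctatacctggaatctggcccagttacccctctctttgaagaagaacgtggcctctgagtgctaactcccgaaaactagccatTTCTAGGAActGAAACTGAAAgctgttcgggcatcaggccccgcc
Irgm2, chr11:58214807-58214976, + strand: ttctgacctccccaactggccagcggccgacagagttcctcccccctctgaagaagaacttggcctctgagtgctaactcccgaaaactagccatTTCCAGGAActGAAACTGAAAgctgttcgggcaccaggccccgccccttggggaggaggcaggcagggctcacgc
Irgm1, chr11:48871421-48871590, - strand: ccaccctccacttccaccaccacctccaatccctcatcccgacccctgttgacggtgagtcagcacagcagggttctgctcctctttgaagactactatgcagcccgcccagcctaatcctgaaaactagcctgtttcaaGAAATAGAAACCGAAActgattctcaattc
Gbp2, chr3:142620493-142620662, + strand: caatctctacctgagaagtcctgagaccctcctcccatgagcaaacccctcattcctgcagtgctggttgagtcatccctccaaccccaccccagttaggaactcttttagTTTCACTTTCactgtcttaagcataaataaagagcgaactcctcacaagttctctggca
Gbp3, chr3:142559874-142560043, + strand: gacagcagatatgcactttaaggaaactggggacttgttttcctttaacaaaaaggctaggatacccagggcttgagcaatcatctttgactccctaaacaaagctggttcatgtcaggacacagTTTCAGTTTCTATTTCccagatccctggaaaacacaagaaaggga
Gbp5, chr3:142496764-142496933, + strand: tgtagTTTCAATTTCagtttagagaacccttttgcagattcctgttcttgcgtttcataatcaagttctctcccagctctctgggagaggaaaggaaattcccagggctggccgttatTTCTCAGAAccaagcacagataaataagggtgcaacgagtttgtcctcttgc
Gbp7, chr3:142530166-142530335, + strand: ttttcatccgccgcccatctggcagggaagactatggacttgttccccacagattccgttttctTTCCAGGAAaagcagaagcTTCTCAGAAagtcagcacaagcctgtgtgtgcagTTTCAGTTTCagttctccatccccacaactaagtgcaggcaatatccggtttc

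An ISRE core was found in 7 of the 7 genes with a window, against 3.44% of all 32851 RefSeq promoter windows of this length. Positions are given from the annotated first base, with negative numbers upstream. In the IRG genes the core lies on the strand of the gene, at -34 in Igtp, at -64 in Irgm2 and at -30 and -24 in Irgm1, where the 2 matches overlap. In the GBP genes it lies on the other strand, where it reads TTTC, any 2 bases, TTTC, at -59 in Gbp2, -165 in Gbp5 and -53 in Gbp7. Gbp3 has 2 windows, of which the upstream one, printed here, holds overlapping matches at -45 and -39 and the other holds none. A GAS element, whose letters read the same on both strands, was found in 4 of the 7 genes, against 8.3% of all windows. It starts at -45 in Igtp and -75 in Irgm2, at -245 and -52 in Gbp5 and at -106 and -87 in Gbp7. Windows that hold both motifs number 149 in all, or 0.454%. The motifs are not particular to the members. Of 20 further genes of the family 9 had a window, with an ISRE core in 6 of these and a GAS element in 4. The window of Ifi47, an IRG gene described below, held neither motif. A match describes letters and shows neither binding nor use in these cells.

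In Igtp and Irgm2 the ISRE core starts 11 bases after the GAS start. This spacing was chosen for a search after it had been seen. Among all 32851 windows, 5 held it, or 0.0152%, and all 5 belong to genes of this family on chromosome 11. The 5 elements are printed because their shared layout can be read base by base, with the motifs in capitals and the bases between them in lower case.
Igtp, chr11:58199511-58199531, + strand: TTCTAGGAActGAAACTGAAA
Irgm2, chr11:58214902-58214922, + strand: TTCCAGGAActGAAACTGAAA
Tgtp1, chr11:48992314-48992334, - strand: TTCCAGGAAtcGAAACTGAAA
Tgtp2, chr11:49064273-49064293, - strand: TTCCAGGAAtcGAAACCGAAA
Gm12185, chr11:48927248-48927268, - strand: TTCCAGGAAtaGAAAGTGAAA
The Irgm2 element differs from that of Igtp at 1 of 21 bases, that of Tgtp1 at 3, and those of Tgtp2 and Gm12185 at 4 each. Igtp and Irgm2 also share an identical stretch of 55 bases further upstream, which starts at -181 in Igtp and at -215 in Irgm2. Their levels in these libraries were not alike, with Igtp at 12.0 times the TPM of Irgm2 or more in each. The level of Irgm2 rests on 9, 5 and 7 counts, and a link between these sequences and the levels was not tested.

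**Figure D1:**
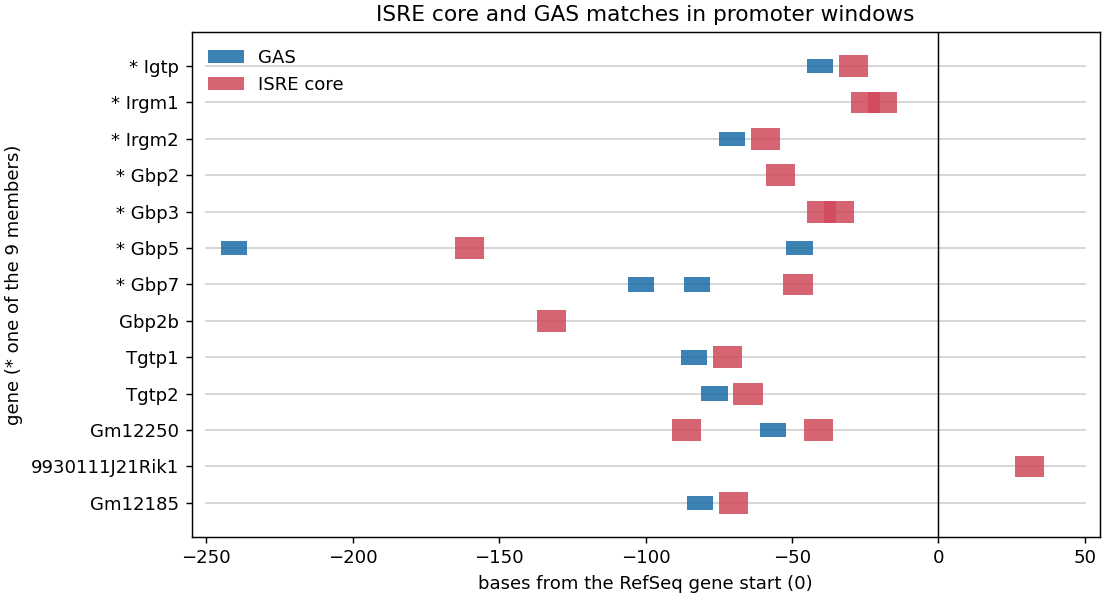
Matches to the ISRE core (red) and the GAS element (blue) in RefSeq promoter windows of the 13 family genes with a match, by distance in bases from the annotated first base; an asterisk marks the 7 of the 9 members that had a window, and the second window of Gbp3 is not drawn. The pair of motifs with the ISRE core 11 bases after the GAS start recurs in Igtp, Irgm2, Tgtp1, Tgtp2 and Gm12185.

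Igtp carried most of the counts of the family's IRG members. This gene (ENSMUSG00000078853, mm10 chromosome 11, 58199556 to 58207591, + strand), also called Irgm3, encodes an Irgm group regulator. Its counts were 74, 33 and 63 in replicates 1, 2 and 3, of 3553547, 2945353 and 3369468 counts in all. As TPM (a transcript level per length: counts divided by exon length and scaled to the same sum in each library) it stood at 19.3, 9.33 and 16.7, or 15.1 ± 5.15 TPM (SD, n = 3). Replicate 2 was the lowest on every scale used, and its exact Poisson 95% interval of 22.7 to 46.3 counts did not overlap that of replicate 1, 58.1 to 92.9, before scaling for library size. The libraries have no molecular identifiers, so copies made by PCR may be counted more than once, and such intervals hold for counting error alone.

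Irgm1 (ENSMUSG00000046879, chromosome 11, 48861968 to 48871683, - strand), the regulator whose loss affects T cells, had 15, 15 and 13 counts. In TPM it stood at 1.36, 1.48 and 1.20, or 1.34 ± 0.14 TPM, with all 3 libraries close together on this scale. With the scaling used in the test below they lay further apart, replicate 2 at 5.95 CPM and replicates 1 and 3 at 3.78 and 3.68 CPM. Irgm2 (ENSMUSG00000069874, chromosome 11, 58199618 to 58222782, + strand), the remaining Irgm regulator, had 9, 5 and 7 counts, or 1.02 ± 0.254 TPM. Iigp1 (ENSMUSG00000054072), the effector GTPase, had 2, 0 and 0 counts over 3121 bases of exon. The limit of 3 counts that goes with a count of 0 corresponds to 0.55 TPM in replicate 2 and 0.514 TPM in replicate 3. The counts thus set an upper limit on the measured level of Iigp1 and do not show that its mRNA was absent.

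Each of the 5 GBP genes had few counts. Gbp2 (ENSMUSG00000028270, chromosome 3, 142620602 to 142638008, + strand), which is recruited to the Toxoplasma vacuole, had 7, 3 and 4 counts, or 0.999 ± 0.411 TPM. Gbp5 (ENSMUSG00000105504, chromosome 3, 142493978 to 142522344, + strand), known in mice for a role in inflammasome assembly, had 9, 6 and 16 counts, or 0.84 ± 0.402 TPM. Gbp5 was the only member highest in replicate 3. Gbp7 (ENSMUSG00000040253, chromosome 3, 142530342 to 142550149, + strand) had 10, 5 and 7 counts, or 0.705 ± 0.216 TPM. Gbp9 (ENSMUSG00000029298, chromosome 5, 105077630 to 105139539, - strand) had 8, 5 and 6 counts, or 0.662 ± 0.135 TPM. Gbp3 (ENSMUSG00000028268, chromosome 3, 142560026 to 142573209, + strand) had 4, 0 and 1 counts, or 0.269 ± 0.335 TPM, so that its SD exceeded its mean.

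**Figure D2:**
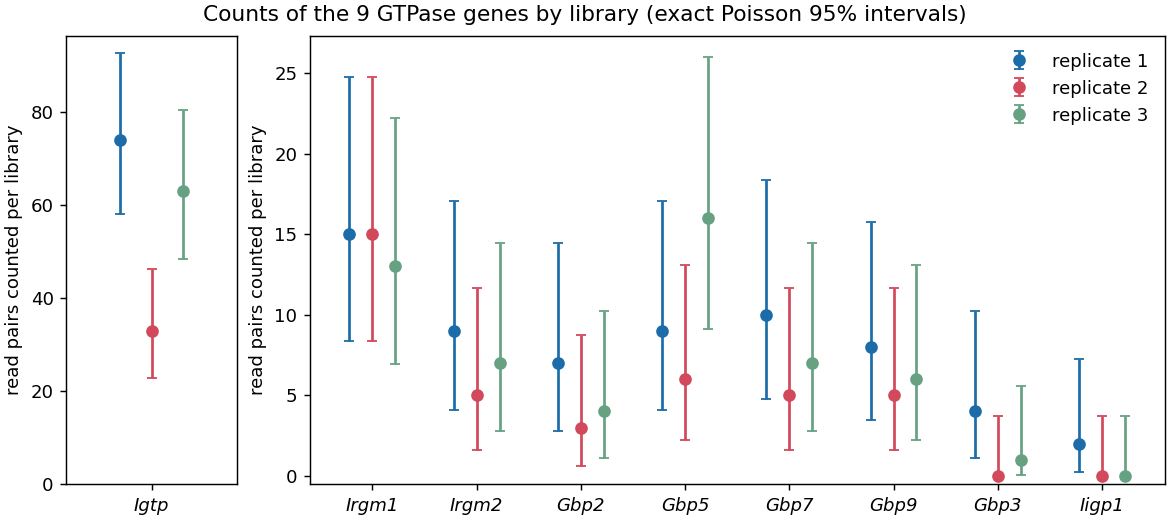
Read pairs counted on each of the 9 genes in each library (points), with exact Poisson 95% intervals (bars) that cover counting error only; Igtp has its own panel because its axis is longer. Igtp lies between 33 and 74 counts, and the highest count of any other member is 16.

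In order of mean TPM the genes were Igtp, Irgm1, Irgm2, Gbp2, Gbp5, Gbp7, Gbp9, Gbp3 and Iigp1. Igtp stood above Irgm1 in 3 of 3 libraries, by 2.72 ± 0.58 in log2((TPM + 1)/(TPM + 1)), a scale that understates differences between low genes. As a ratio of TPM, Igtp was 14.2, 6.32 and 13.9 times Irgm1, 23.7, 16.9 and 26.9 times Gbp9 and 20.5, 18.3 and 25.0 times Gbp7. Of the 8 neighbouring pairs in this order, 3 kept it in every library: Igtp over Irgm1, Irgm1 over Irgm2 and Gbp9 over Gbp3. Irgm1 exceeded Irgm2 by 0.22 ± 0.23 on that log2 scale, no more than the SD. Gbp9 exceeded Gbp3 by 0.42 ± 0.25, on Gbp3 counts of 4 and below. From Irgm2 to Gbp9 the neighbours changed places between libraries, and Gbp3 and Iigp1 were tied at 0 in replicate 2. An exact sign-flip test over 3 libraries cannot go below p = 0.25, so no pair was tested.

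Summed over their members, the IRG genes stood at 22.2, 11.6 and 18.9 TPM and the GBP genes at 4.57, 2.26 and 3.59 TPM. The log2 ratio of the sums was 2.28, 2.36 and 2.39, or 2.34 ± 0.06, higher for the IRG genes in 3 of 3 libraries. Of the summed TPM of the 9 genes, Igtp held 71.1% ± 3.43. With Igtp left out, the log2 ratio of IRG to GBP members was -0.44 ± 0.38, lower for the IRG genes in 3 of 3 libraries, by as little as 0.01 in replicate 2. Without division by exon length, on CPM (counts scaled by the library total), the ratio with Igtp was 1.39.

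Of the 9 genes, Igtp and Irgm1 were detected, which here means 1 TPM or more in every library on the strand counted. The share of all 21764 protein-coding genes detected in this way was 41.2%, and of those with no gene on the opposite strand within 5000 bases, called isolated here, 26.6%. Irgm2 reached 1 TPM in 2 libraries, Gbp2 and Gbp5 in 1 each and the other 4 genes in none. The count of detected members turned on the threshold and the scaling, as 5 of them had means from 0.662 to 1.02 TPM. At 0.5 TPM in every library 7 of the 9 were detected, against 45.4% of protein-coding genes, and at 5 TPM Igtp alone, against 24.7%. With TPM scaled over protein-coding genes only, 7 of the 9 reached 1 TPM in every library, against 46.5%. Both Igtp and Irgm1, and no other member, had 10 counts or more in every library, as had 39.3% of protein-coding genes. The median over the 9 genes of mean TPM was 0.84, against 0.413 over all protein-coding genes and 0 over the isolated ones.

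Counts were made with strand option 1 and exon overlap, so genes on the other strand bear on what a count can be assigned to. Of the 9 genes, 8 were isolated. The exception was Gbp2, whose exons share 24 bases with Mir6381 (ENSMUSG00000098871), a microRNA gene of 87 bases on the opposite strand. Mir6381 had 20, 25 and 18 counts, more than the 7, 3 and 4 of Gbp2 in every library, though Gbp2 has 2516 bases of exon. Per kb of exon, Mir6381 stood at 241 ± 41.4 counts and Gbp2 at 1.85 ± 0.827. A second opposite-strand pair with counts in the wider family joins Ifi47 and the processed pseudogene Gm12188, which share 106 bases. There, Gm12188 had 13, 13 and 11 counts over 310 bases, or 39.8 ± 3.72 counts per kb, and Ifi47 stood at 34.6 ± 8.31 counts per kb. Whether the strand option matched the libraries was not tested. On the mitochondrial genome, mt-Nd6, the lone mRNA gene of its strand, had 15.1, 23.3 and 18.2 times the counts per kb of the highest of the other mRNAs. Levels and detection in this report refer to the strand counted, and a low count does not show a low level of mRNA.

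**Figure D3:**
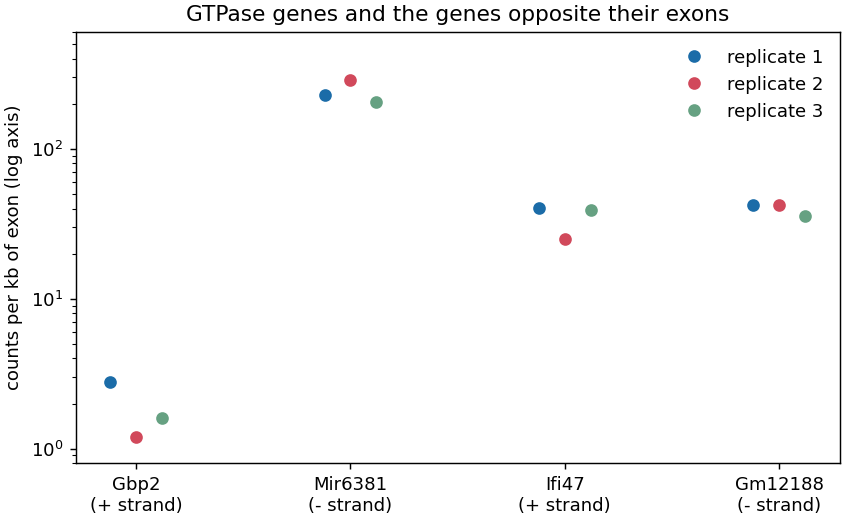
Counts per kb of exon (log axis) of Gbp2 and Ifi47 and of the genes opposite their exons, Mir6381 and Gm12188, with 1 point per library. Mir6381 lies at 207 counts per kb or more in every library and Gbp2 at 2.78 or less, whereas Ifi47 and Gm12188 lie between 25.1 and 41.9.

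Genes on the same strand also limit some members. Igtp and Irgm2 share 162 bases of exon, since the annotated Irgm2 gene starts inside Igtp, well upstream of the first base of the RefSeq window printed for Irgm2. Gbp9 shares 60 bases each with Gbp8 and Gbp4, and Gbp7 shares 637 bases with the processed pseudogene Gm43802, which had 0 counts. By the default of the counting tool, a pair that overlaps exons of more than 1 gene is counted for none, so counts in these bases are lost. Sequence shared with other genes was small for the members. Of all 50-base stretches in their transcripts, between 0.379% in Irgm1 and 12.7% in Gbp7 occurred in transcripts of another gene, and the share was 11.8% in Igtp, all of it shared with Irgm2. Near-copies outside the 9 genes differed in this, with 81.2% in Tgtp1, 86.6% in Tgtp2, 84.1% in Gbp10 and 99.2% in Gvin1. Counts of those genes are uncertain, because read pairs that match more than 1 place are left out by default.

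The spread of Igtp and Irgm1 between libraries did not pass a test against counting error. Each gene's counts were set against Poisson error at library sizes scaled by TMM (edgeR's trimmed mean of M values), in a chi-square test over 10216 genes with Benjamini-Hochberg adjustment. Only these 2 members passed the filter on low counts, and 0 of them was called, against 35.6% of all tested genes and 23.7% of the tested isolated genes. Scaled by TMM, Igtp stood at 18.7, 13.1 and 17.9 CPM (chi-square test, unadjusted p = 0.216, adjusted p = 0.345). The 95% counting intervals were 14.7 to 23.4, 9.01 to 18.4 and 13.7 to 22.8 CPM, so a difference of the size seen cannot be told from counting error at this depth. Irgm1 stood at 3.78, 5.95 and 3.68 CPM (chi-square test, unadjusted p = 0.34, adjusted p = 0.476), so that replicate 2 was the highest for Irgm1 and the lowest for Igtp. Neither gene had an unadjusted p under 0.05, and 0 was called with DESeq2 size factors. Without a filter all 9 members were tested and 0 was called, with 0 unadjusted p under 0.05, against 18.5% of the 19021 genes with a count. At counts as low as the 2 of Iigp1 and the 5 of Gbp3 over all libraries, the test can call little or nothing. The lack of calls thus does not show that these members were stable.

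The scaling of libraries decided the call for Igtp. At total counts, without TMM, the adjusted p of Igtp was 0.0215 (chi-square test), against 51.7% of genes called, and with TMM over genes that overlap no opposite-strand exon it was 0.705, against 33.3% called. Over all the alternatives the adjusted p of Igtp ranged from 0.0215 to 0.923. Replicate 2 stood apart in composition: genes whose exons overlap those of an opposite-strand gene took 68.0%, 77.5% and 70.3% of the counts in replicates 1, 2 and 3, and isolated genes 14.1%, 9.52% and 12.9%. Without replicate 2, 968 of the tested genes were called in place of 3641, and again neither member. After TMM scaling, Igtp deviated from its mean over libraries by 0.19, -0.31 and 0.12 (log2), and the median tested isolated gene by 0.12, -0.15 and 0.03. The part of this shift in the spread of Igtp was not tested beyond the change of scaling.

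Among 20 further IRG, GBP and related GTPase genes, Ifi47 (also called Irgd), an IRG gene of chromosome 11, stood close to Igtp. It had 99, 62 and 96 counts and 18.7 ± 3.8 TPM, with Igtp at 0.914, 0.651 and 0.803 times its TPM, lower in 3 of 3 libraries. It was the 1 gene of the 20 detected in every library. Gm12250, annotated as a processed pseudogene near Igtp, had 5, 1 and 2 counts and 1.12 ± 0.843 TPM, and the other 18 had means below 1 TPM. Of the 20 genes, 7 had 0 counts in every library, among them Gbp2b, Gbp10 and Gvin1.

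By position, the 29 genes fall into loci on chromosomes 3, 5, 7, 11, 16 and 18, joined where genes lie within 500000 bases. Those on chromosome 11 held most of the TPM. The locus from 48861968 to 49096974 with Irgm1, Ifi47, the Tgtp genes and 4 others held 49.9% ± 3.85 of the family's TPM, and the locus from 58187739 to 58222782 with Gm12250, Igtp and Irgm2 held 37.5% ± 3.53. The GBP loci held 6.11% ± 0.641 on chromosome 3, with 5 genes, and 5.25% ± 1.68 on chromosome 5, with 6 genes. The locus on chromosome 18, with Iigp1, Gm4951 and F830016B08Rik, held 2, 0 and 0 counts. Within each chromosome 11 locus 1 gene, Ifi47 or Igtp, held most of the level.

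**Figure D4:**
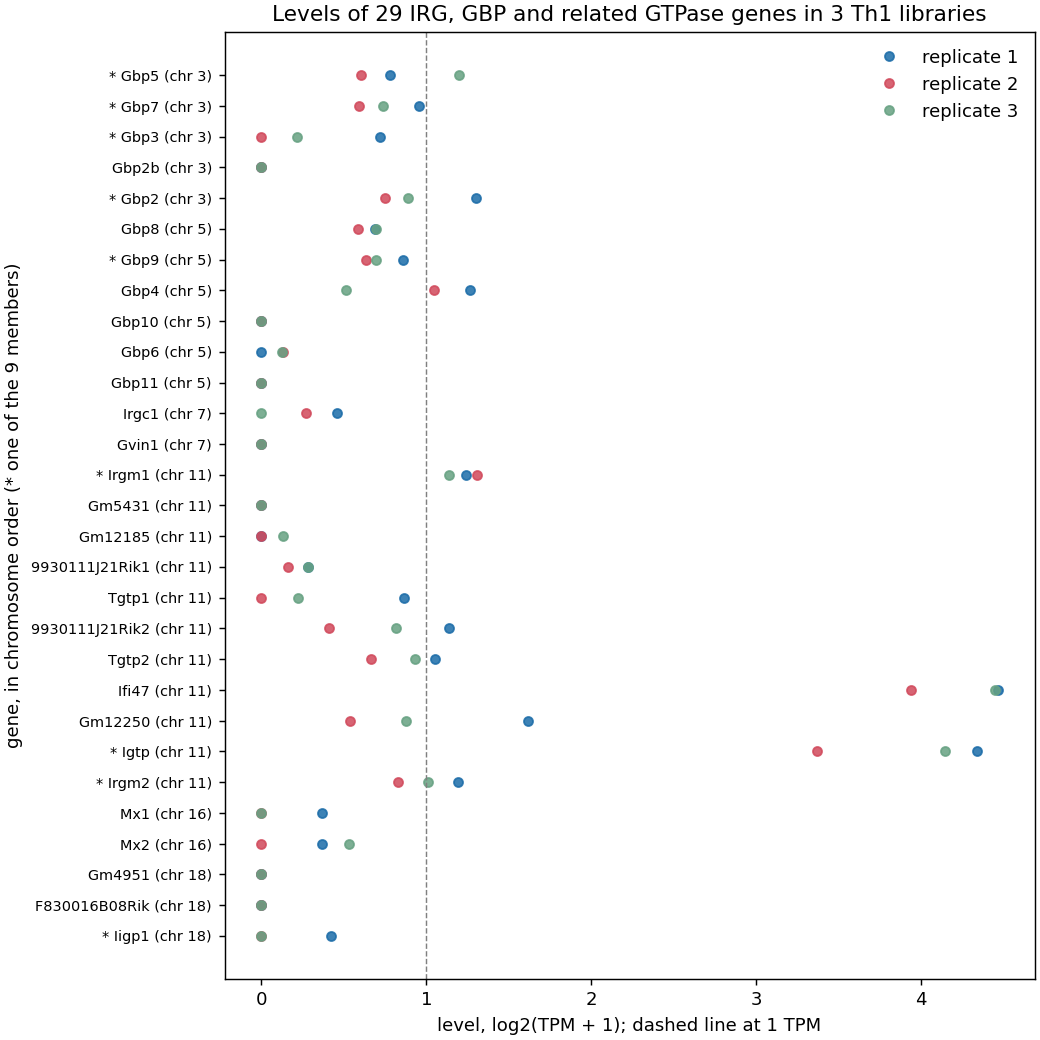
Level of 29 family genes in each library, as log2(TPM + 1), in chromosome order, with an asterisk on the 9 members and a dashed line at 1 TPM. Igtp and Ifi47 stand apart in every library, and most other genes lie at or below 1 TPM.

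Most genes of the pathway known to act upstream were detected, against 41.2% of protein-coding genes. Of 11 interferon gamma signalling genes 10 were detected, with Irf8 at 36.5 ± 7.23 TPM, the kinase gene Jak1 at 30.4 ± 9.29 TPM and Jak2 at 28.2 ± 11.4 TPM. The receptor genes Ifngr1 and Ifngr2 and the factor gene Irf1 were among the 10. The exception was Ifng itself, with 2, 2 and 1 counts, or 0.703 ± 0.253 TPM, and below 1 TPM in every library. Of these 11 genes 10 were tested and 2 varied between libraries, Jak1 (chi-square test, adjusted p = 0.00442) and Jak2 (chi-square test, adjusted p = 3.9e-06), a share below the background of all tested genes. All 6 type I interferon signalling genes were detected, led by Tyk2 at 5.68 ± 1.69 TPM, Usp18 at 5.64 ± 1.1 and Ifnar2 at 3.77 ± 1.38. All 6 were tested and 0 varied between libraries, against 35.6% of all tested genes. Tyk2, Usp18, Jak1 and Irf1 have exons that overlap an opposite-strand gene, so their counts cannot be assigned to them alone.

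Of 13 genes of ATG8 conjugation, its ATG8 proteins and the receptor gene Sqstm1, 11 were detected, against 41.2% of protein-coding genes. Sqstm1 stood at 51.2 ± 3.88 TPM and overlaps an opposite-strand exon. Atg7, the activating enzyme, stood at 46 ± 0.561 TPM and Atg3, a conjugating enzyme, at 15.4 ± 2.82 TPM. Opposite-strand genes lie 14 bases from Atg7 and 79 bases from Atg3. Of the 13 genes 11 were tested and 2 varied between libraries, Sqstm1 (chi-square test, adjusted p = 0.00162) and Atg7 (chi-square test, adjusted p = 4.04e-10). By this test 35.6% of all tested genes varied. Scaled by TMM, Atg7 stood at 153, 225 and 168 CPM in replicates 1, 2 and 3. Of 25 other interferon-induced genes 11 were detected, close to the background share of protein-coding genes. B2m stood at 400 ± 129 TPM, Psmb9 at 52.8 ± 1.57 and Psmb8 at 49 ± 13.4, genes of antigen presentation. Psmb9 and Psmb8 have exons that overlap an opposite-strand gene, and the span of B2m overlaps such a gene with no exon bases shared. Of the 25 genes 10 were tested and 3 varied between libraries, a share near the 35.6% of all tested genes. Among the 3 were Psmb9 (chi-square test, adjusted p = 1.47e-06) and B2m (chi-square test, adjusted p = 1.07e-05). With 0 counts in every library stood Ifit3, Rsad2, Oas1a, Ifi44, Cxcl9 and Cxcl10. These lists were chosen with earlier results of the data known, and their counts are a description.

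**Figure D5:**
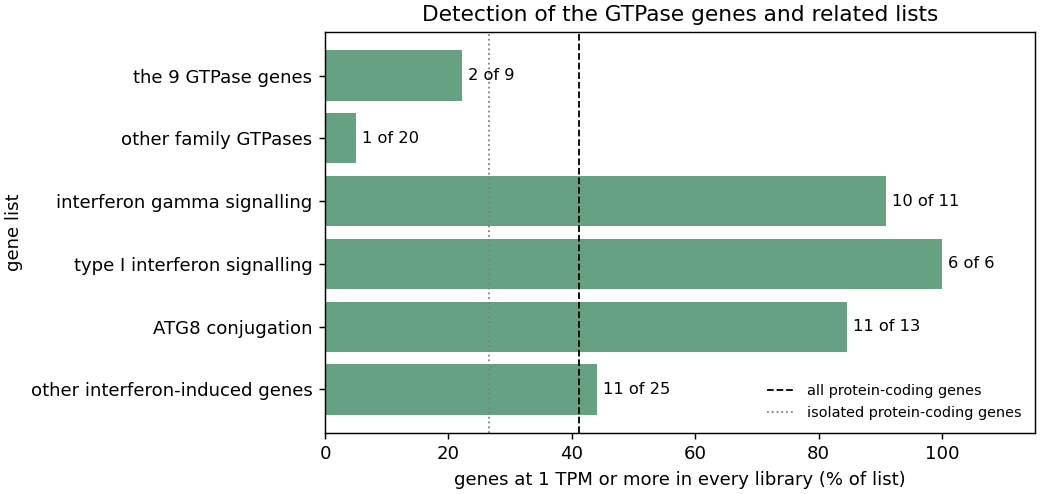
Share of each gene list at 1 TPM or more in every library (bars, with counts), beside the share of all protein-coding genes (dashed line, 41.2%) and of isolated protein-coding genes (dotted line, 26.6%). The 9 GTPase genes, at 2 of 9 (22.2%), lie below the dashed line and near the dotted line, and both signalling lists lie above both lines. The place of the 9 genes turns on the threshold, as 7 of 9 reached 0.5 TPM in every library, against 45.4% of protein-coding genes.

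All 11 T cell markers were detected, led by Trac at 196 ± 73.4 TPM, Cd247 at 185 ± 5.54 and Trbc2 at 117 ± 35.2, with Cd4 at 105 ± 29.7. Cd247 has exons that overlap an opposite-strand gene. All 11 T cell markers were tested and 7 varied between libraries, against 35.6% of all tested genes. Cd247 was among the 7 (chi-square test, adjusted p = 1.34e-35). Of 9 Th1 markers 4 were detected, Tbx21, Stat4, Il12rb2 and Runx3, a share near the 41.2% of all protein-coding genes. Il12rb2 has exons that overlap an opposite-strand gene, and the spans of Stat4 and Runx3 overlap such a gene with no exon bases shared. Tbx21, the defining Th1 factor, had 15, 11 and 8 counts and 2.47 ± 0.727 TPM, while Hlx had 0 counts and Ifng 5 over all libraries. Of 20 markers of B cells, macrophages, dendritic cells and NK cells 4 were detected, Cd79a, Csf1r, Cd68 and Xcr1. Csf1r had 1429, 1418 and 1460 counts, more than Cd4 with 979, 506 and 880. Of the 20, 10 had 0 counts in every library, including Lyz2, Itgam, Flt3 and Ncr1. Summed TPM ranged from 7.23 to 8.14 for B cell markers, 163 to 169 for macrophage markers, nearly all on Csf1r, whose exons overlap an opposite-strand gene, 1.19 to 1.62 for dendritic cell markers and 0.38 to 0.773 for NK cell markers. Of the 2 CD8 markers, Cd8b1 was detected and Cd8a had 1 count per library. In bulk RNA, fewer cells that express a GTPase gene and less of its RNA per cell cannot be told apart.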

How the data were processed

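RNA of 3 libraries of Th1 cells was measured. The deposited files hold unnormalized counts for each gene, which the authors made with featureCounts 1.4.6-p4 on GENCODE M13 exons with strand option 1, per the file headers, on mm10, per the labels. No source used here names the aligner's version. Computed here were CPM, and TPM from the counts and the deposited exon lengths (another unit of the authors' files). Symbols and biotypes came from GENCODE M21, which named 50376 genes and left 224 without a symbol. Strand classes came from the deposited exon coordinates. Variation between libraries was tested across all genes that pass edgeR's filterByExpr. The chi-square test described in the report was used (2 degrees of freedom, called at an adjusted p under 0.05). It was also run on simulated Poisson counts with some genes changed in 1 library. These held no broad shift in composition like that of replicate 2, so that run does not bear on the choice of library scaling. Total counts were 3553547, 2945353 and 3369468, and counting error limits every member but Igtp to a broad interval. Alternatives were DESeq2 size factors, total counts, TMM over genes without opposite-strand overlap, no filter, other detection thresholds, other TPM denominators, a pseudocount of 0.1 and leaving out each replicate. All 9 members are named. Of the other family genes those at a mean of 1 TPM or more are named, and of other lists the 3 highest and those at 0 may be named. Further names (Cd4, Tbx21, Ifngr1, Ifngr2, Irf1, Gbp8, Gbp4 and the near-copies) were chosen after their values were seen. The members and lists were chosen with earlier results of these data known. No gene was named for likeness across libraries, since 3 libraries of 1 group hold no pattern over conditions. Protein sequences were not analysed here, and some genes of the lists are not reported here. Tables were made in Python 3.11.15 (pandas 2.3.3, numpy 2.4.6, scipy 1.17.1), figures in matplotlib 3.10.9, and fits in R 4.3.3 (DESeq2 1.42.0, edgeR 4.0.16).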

Additional observations from a re-analysis of the deposited data

How the results depend on the processing

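No paired analysis was possible because there is 1 group. With libraries scaled to total counts, 1 of the 2 tested members, Igtp, was called as varying between libraries instead of 0. At that scaling 5278 of the 10216 tested genes, or 51.7%, were called, so the call is not particular to Igtp. With TMM the calls over all tested genes numbered 3641, and from 968, without replicate 2, to 3768 with each replicate left out in turn. Leaving out replicates kept member calls at 0. Of the members, 2 were detected; the number was 7 at 0.5 TPM, 1 at 5 TPM, 7 with TPM over protein-coding genes and 2 to 3 without a replicate. For the other family GTPases the 1 detected gene became 2 at 0.5 TPM, 5 with TPM over protein-coding genes and 1 to 2 without a replicate (2 without replicate 3). At 5 TPM, 6 of the interferon gamma signalling genes, 0 of the type I interferon signalling genes and 6 of the ATG8 conjugation genes were detected. The share of protein-coding genes at that threshold was 24.7%. The summed TPM of IRG members, 17.6, was 43.0 with TPM over protein-coding genes and 87.6 over genes without an opposite-strand exon overlap, and that of GBP members, 3.48, was 8.51 and 17.3. Their log2 ratio was 1.39 on CPM. Smaller denominators raise every TPM by construction; for other changes the cause was not tested. Of the alternative values of results that answer a comparison, 62 kept their call, stayed within 1 SD or, for counts of genes, within 1.5 times the main count, 16 did not, and none reversed. Depth limits the members: 7 of 9 had fewer than 10 counts in some library.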
